A study of Mus musculus with 19 samples.

Results

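The Wnt and beta-catenin pathway was examined in a set of 50 mouse genes, chosen by name from its ligands, receptors, intracellular transducers, transcription factors and modulators. The choice was made with earlier results of these data known. All 50 were found among the 21883 nuclear protein-coding genes that RefSeq places on GRCm38.p6. A CpG site was counted for a gene when it lay inside it or within 2 kb of either end. Of the 50 genes, 15 had such a site in at least 1 of 3 tables of group differences, and 35 had none.

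The tables came from reduced-representation bisulfite sequencing of liver DNA, which reads cytosine methylation in fragments released by restriction enzymes, here MspI and TaqαI. The groups were 6 placebo-treated Mat1a knockout (KO) mice, 5 KO mice supplemented with S-adenosylmethionine (SAMe) and 8 untreated wild-type (WT) mice. All 19 mice were aged 10 months, and the series title gives 8 weeks of treatment. Mat1a encodes the hepatic methionine adenosyltransferase that makes SAMe, from which DNA methyltransferases take their methyl groups. No WT mice received placebo or SAMe, so genotype and the treatment procedure cannot be told apart in either comparison with WT. The kind of deletion and the sex of the mice are not given in the sources used here.

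Each table lists CpG sites that passed the authors' thresholds, with 1 group difference in percentage points and a q-value per site. The tables hold no methylation level, no read depth and no value per animal, so no difference below carries an SD and the depth is unknown. A gene with no listed site was therefore either under the thresholds or not covered. Differences were read as KO minus WT, and as SAMe minus placebo among KO mice, an order that the tables do not state. If the authors used the opposite order, all directions turn round together. Whole liver was sampled, and a change in the mix of cell types cannot be told apart from a change within cells.

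Wnt ligands are secreted lipid-modified proteins that bind Frizzled receptors together with the co-receptors Lrp5 and Lrp6. The signal passes through Dishevelled and halts the complex of Axin, Apc and Gsk3b that otherwise marks beta-catenin (Ctnnb1) for breakdown, and beta-catenin then acts with TCF/LEF factors on target genes. In liver the pathway is known for setting pericentral gene expression, with ligands and Rspo3 supplied by endothelial cells, and for driving growth and many liver tumours.

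RefSeq start sites were matched for 34 of the 50 genes. Of these, 4 had a listed site within 1.5 kb of a start. The 250 bases before that start (RefSeq, GRCm38.p6) are shown because, among the matched starts, they lie nearest to a listed site. Genes without a matched start could not be ranked in this way. Every CpG is in capitals.
Wnt5b, chr6:119544348-119544597, minus strand: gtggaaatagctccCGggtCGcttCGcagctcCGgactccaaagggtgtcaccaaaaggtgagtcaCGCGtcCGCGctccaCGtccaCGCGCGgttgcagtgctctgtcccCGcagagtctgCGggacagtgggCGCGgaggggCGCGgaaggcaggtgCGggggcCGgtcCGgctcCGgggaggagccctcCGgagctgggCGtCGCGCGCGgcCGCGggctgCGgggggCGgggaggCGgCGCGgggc
Wnt10b, chr15:98778151-98778400, minus strand: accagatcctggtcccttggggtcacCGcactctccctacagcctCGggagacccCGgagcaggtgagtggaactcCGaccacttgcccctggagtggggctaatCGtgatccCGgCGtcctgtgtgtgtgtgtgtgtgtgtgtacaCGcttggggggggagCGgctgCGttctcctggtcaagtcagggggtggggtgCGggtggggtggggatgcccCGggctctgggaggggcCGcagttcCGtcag
Wnt11, chr7:98838595-98838844, plus strand: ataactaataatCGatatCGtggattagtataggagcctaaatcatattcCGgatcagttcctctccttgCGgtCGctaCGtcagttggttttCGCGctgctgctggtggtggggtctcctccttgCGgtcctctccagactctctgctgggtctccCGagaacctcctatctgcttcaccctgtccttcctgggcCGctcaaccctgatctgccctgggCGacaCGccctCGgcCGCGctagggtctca
Dvl2, chr11:70000342-70000591, plus strand: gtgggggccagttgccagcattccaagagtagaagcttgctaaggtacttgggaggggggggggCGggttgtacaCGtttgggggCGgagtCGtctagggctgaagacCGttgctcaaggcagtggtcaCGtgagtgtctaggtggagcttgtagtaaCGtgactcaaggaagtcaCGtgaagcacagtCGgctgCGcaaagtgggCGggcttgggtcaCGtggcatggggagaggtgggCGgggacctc
The Wnt5b stretch held 35 CpG dinucleotides, against 16 for Wnt11, 14 for Wnt10b and 13 for Dvl2. The MspI recognition sequence CCGG occurred 6 times for Wnt5b, 3 times for Wnt10b, 1 time for Wnt11 and 0 times for Dvl2, and Wnt11 alone of these 4 held the TaqαI sequence TCGA. None of the listed CpG sites lay within these letters. The nearest were 533 bases before the matched start of Wnt5b, 777 before that of Dvl2, 1051 after that of Wnt11 and 1215 after that of Wnt10b.

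Placebo-treated KO mice were first set against untreated WT mice, a contrast of genotype together with the treatment procedure. Methylation was lower in KO placebo than in WT at all 17 sites of the authors' deposited table that lay at Wnt pathway genes. They belonged to 13 of the 50 genes (26%), beside 12.5% of all coding genes. Differences at these sites ran from −44.3 to −20.9 percentage points with a median of −27.6 in the authors' deposited table, beside a median of −25.9 over all 6721 listed sites. Joining neighbours within 1 kb gave 15 separate places, and a single site was found in 10 of the 13 genes. The largest q-value among them was 3.08e-06 in the authors' deposited table. Lower methylation was general in this table (99.4% of all listed sites), so the direction at the pathway genes matched that of the background.

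The second comparison set SAMe-supplemented KO mice against the same untreated WT mice. Methylation was lower in KO SAMe than in WT at all 20 sites at pathway genes, in 13 of the 50 genes (26%), beside 10.8% of all coding genes. Their differences ran from −50.9 to −20.3 percentage points with a median of −26.4 in the authors' deposited table, beside −26.6 over all 5383 listed sites. Of all listed sites, 99.0% were lower. The 2 comparisons share the WT mice, so their values are given side by side below and their likeness is not a separate result.

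**Figure D1:**
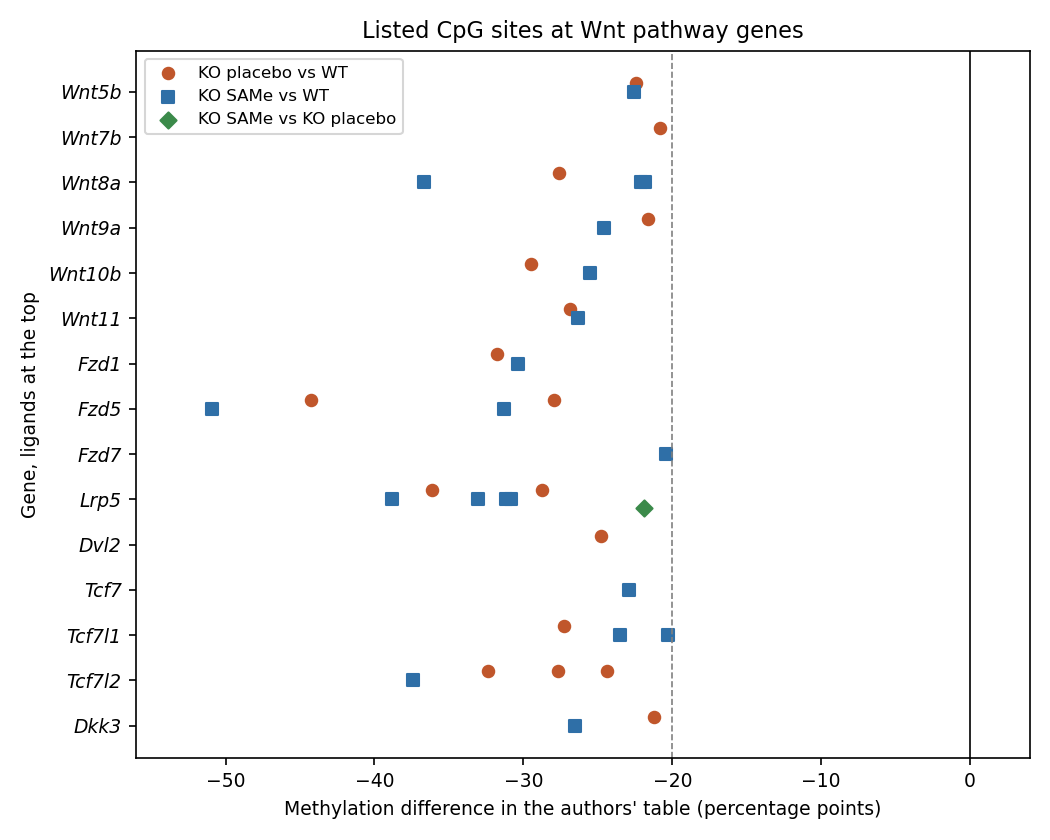
Methylation difference in percentage points (x axis) at each listed CpG site in or within 2 kb of a Wnt pathway gene (y axis, ligands at the top, then receptors, transducers and transcription factors). Circles are KO placebo minus WT, squares KO SAMe minus WT and the diamond KO SAMe minus KO placebo, the dashed line marks −20, and all points lie at or below −20.3, with Fzd5 at −44.3 and −50.9.

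Among the 19 Wnt ligand genes, 6 had a lower site in KO placebo and 5 in KO SAMe. Of all coding genes, 12.5% had a listed site for KO placebo and 10.8% for KO SAMe. Wnt10b stood at −29.5 in KO placebo and −25.5 in KO SAMe relative to WT in the authors' deposited table, at chromosome 15 position 98776935 inside the gene. Wnt11, a ligand best known for beta-catenin-independent signalling, stood at −26.9 in KO placebo and −26.3 in KO SAMe in the authors' deposited table, at chromosome 7 position 98839896. Wnt9a stood at −21.6 in KO placebo and −24.6 in KO SAMe in the authors' deposited table (chromosome 11, position 59325753). These 3 ligands had the same single CpG listed in both comparisons with WT.

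Wnt8a, known from early embryonic patterning, had 1 site in KO placebo and 3 in KO SAMe, all inside the gene on chromosome 18. The site at position 34547457 stood at −27.6 in KO placebo and −36.7 in KO SAMe relative to WT in the authors' deposited table. On either side of it, positions 34547436 and 34547474 stood at −21.8 and −22.1 in KO SAMe in the authors' deposited table, the 3 sites lying within 38 bases of each other. The neighbours were not listed for KO placebo.

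Wnt5b, a ligand known mainly for beta-catenin-independent signalling, had different sites in the 2 comparisons. In KO placebo it was position 119451809 on chromosome 6, inside the gene, at −22.4 in the authors' deposited table. In KO SAMe it was position 119544880, 56 bases beyond the annotated gene and 533 before the start shown above, at −22.6 in the authors' deposited table. That second CpG also lay within 2 kb of the predicted gene Gm52875. Wnt7b had 1 site, at −20.9 in KO placebo in the authors' deposited table (chromosome 15, position 85543773), and none in KO SAMe.

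The other 13 ligand genes had no listed site in any table. They were Wnt1, Wnt2, Wnt2b, Wnt3, Wnt3a, Wnt4, Wnt5a, Wnt6, Wnt7a, Wnt8b, Wnt9b, Wnt10a and Wnt16. Wnt2 and Wnt9b, the ligands known from liver endothelial cells, were thus among those without one.

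Among the 10 Frizzled receptor genes, 2 had lower sites in KO placebo and 3 in KO SAMe, beside 12.5% and 10.8% of all coding genes. Fzd5 had the largest difference of the 50 genes: chromosome 1 position 64735177 stood at −44.3 in KO placebo and −50.9 in KO SAMe relative to WT, with q listed as 0 in the authors' deposited table. A difference as low or lower was found at 5.16% of all listed sites for KO placebo and 2.64% for KO SAMe. The CpG 34 bases away, at 64735211, stood at −27.9 in KO placebo and −31.3 in KO SAMe in the authors' deposited table. Both Fzd5 sites were therefore lower in both KO groups, and 1 of them was the single pathway site past 40 percentage points in each comparison with WT.

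Fzd1 stood at −31.8 in KO placebo and −30.3 in KO SAMe relative to WT in the authors' deposited table (chromosome 5, position 4756302). Fzd7 was listed for KO SAMe (chromosome 1, position 59484672) with −20.4 in the authors' deposited table, close to the smallest difference the table holds. The sites of these 3 receptors lay at like distances from the start: 1914 bases after it in Fzd1, 2539 and 2573 in Fzd5 and 2525 in Fzd7. The genes are short, 4.38, 7.19 and 4.81 kb. Fzd2, Fzd3, Fzd4, Fzd6, Fzd8, Fzd9 and Fzd10 had no listed site.

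Of the 2 LRP co-receptors, Lrp5 had lower sites and Lrp6 had none. Lrp5 was the pathway gene with sites in all 3 tables. A CpG on chromosome 19 at position 3687365 lay 780 bases outside the gene, past its higher-coordinate end. No start was matched for Lrp5, so upstream and downstream were not told apart. The CpG also lay in or within 2 kb of the non-coding gene Gm36672. This CpG stood at −36.1 in KO placebo and −38.8 in KO SAMe in the authors' deposited table. Inside the gene, position 3628377 stood at −28.7 in KO placebo in the authors' deposited table and was not listed for KO SAMe. A run of 3 CpGs spread over 24 bases (3652133, 3652143 and 3652157) stood at −31.2, −33.1 and −30.9 in KO SAMe in the authors' deposited table, and none of them was listed for KO placebo.

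Of the 3 Dishevelled genes, which relay the signal from the receptors, Dvl2 had 1 site. It stood at −24.8 in KO placebo in the authors' deposited table, at chromosome 11 position 69999815, 777 bases before the start shown above. The same CpG lay in or within 2 kb of the neighbouring gene Phf23, so it cannot be assigned to Dvl2 alone. Dvl1 and Dvl3 had none.

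The 5 genes of beta-catenin and its destruction complex (Axin1, Axin2, Apc, Gsk3b and Ctnnb1) had no listed site in any table. Neither did the 5 genes around R-spondin: the ligases Rnf43 and Znrf3, which remove Frizzled receptors from the cell surface, the R-spondin receptors Lgr4 and Lgr5, and Rspo3. Their lengths ran from 27.1 to 157 kb and from 72.5 to 169 kb. Ctnnb1 and Axin2 lay between 10 and 50 kb, where 12.5% of all coding genes had a listed site for KO placebo and 11.2% for KO SAMe. The other 8 were longer, and of all coding genes of 50 kb and over 22.5% had one for KO placebo and 18.5% for KO SAMe. Axin2, Lgr5, Rnf43 and Znrf3 are also known targets of the pathway. For KO placebo, Ctnnb1, Wnt1 and Wnt7a had a listed site between 2 and 10 kb away, and for KO SAMe 0 genes without a nearer site did.

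The TCF/LEF factors, which carry beta-catenin to its target genes, had lower sites in 2 of 4 genes for KO placebo and 3 of 4 for KO SAMe. The shares of all coding genes were 12.5% and 10.8%, and 4 genes are too few to set against them. Tcf7l2, the member known for its part in hepatic metabolism, stood at −27.7 in KO placebo and −37.4 in KO SAMe relative to WT at chromosome 19 position 55745525, 3715 bases after a start, in the authors' deposited table. A pair of CpGs deeper in the gene, at 55797627 and 55797649, stood at −24.4 and −32.4 in KO placebo in the authors' deposited table and was not listed for KO SAMe. Tcf7l2 was thus the factor with the most sites for KO placebo, all inside the gene.

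Tcf7l1, known mainly as a repressor, stood at −27.3 in KO placebo and −23.5 in KO SAMe at chromosome 6 position 72655617, in the authors' deposited table. A further site at 72737888 stood at −20.3 in KO SAMe, in the authors' deposited table. Tcf7, known from T cells, had 1 site for KO SAMe (chromosome 11, position 52252003), which stood at −22.9 in the authors' deposited table. Lef1 had none. Of the Dickkopf genes, Dkk3 stood at −21.2 in KO placebo and −26.6 in KO SAMe in the authors' deposited table (chromosome 7, position 112158960), and Dkk1, an inhibitor that blocks the LRP co-receptors, had none.

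The third comparison asked what SAMe changed among KO mice. A single pathway gene had a listed site, Lrp5, which is 2% of the 50 genes beside 0.658% of all coding genes. Its CpG at position 3652143, the middle of the run of 3 described above, was lower in KO SAMe than in KO placebo, with a difference of −21.9 percentage points (q = 5.94e-06) in the authors' deposited table. Lower sites made up 30% of the 230 listed for this comparison. With the difference of −33.1 from WT in KO SAMe, addition places KO placebo at −11.2 from WT, which is under the listing threshold of 20.

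In all, the pathway genes held 26 separate CpG positions in the comparisons with WT. Of these, 11 positions in 10 genes were listed in both, 6 for KO placebo alone and 9 for KO SAMe alone. At the 11 shared positions the SAMe minus placebo difference, by subtraction of the values in the authors' deposited table, ran from −9.75 percentage points at Tcf7l2 to 3.98 at Wnt10b with a median of −2.94. It was negative at 7 positions and positive at 4. Over all 3707 positions listed in both, the median was −0.46 with quartiles of −3.75 and 2.75. None of the 11 was listed as differing between the KO groups, and listing in both tables by itself makes positions where the KO groups differ rarer.

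**Figure D2:**
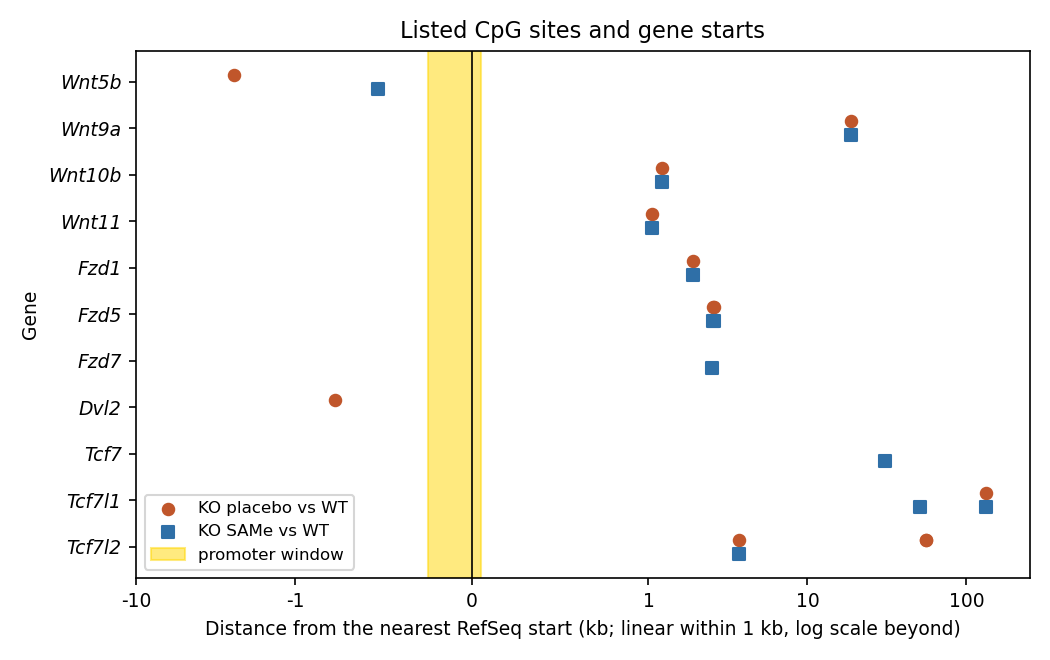
Distance of each listed CpG site from the nearest RefSeq start of the same gene (x axis, kb, linear within 1 kb and on a log scale beyond, positive values after the start) for the 11 genes with a site and a matched start (y axis). Circles are KO placebo minus WT, squares KO SAMe minus WT and the shaded band the promoter window of 250 bases before to 50 after the start, in which no site lies.

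No listed site of a pathway gene fell in any of the RefSeq promoter windows used here, the 250 bases before to 50 after a start, in any table. Over the genome 1.22% of listed sites did so for KO placebo and 1.02% for KO SAMe, so with 17 and 20 pathway sites a count of 0 shows no departure from the background. Lrp5, Dkk3, Wnt8a and Wnt7b had no matched start and so no window of their own. For Wnt5b, the upstream end of this minus-strand gene was not among the matched starts. Its KO SAMe site lay 56 bases outside that end, so its distance of 533 bases holds for the matched start only. Where a start was known, 1 of 12 pathway sites for KO placebo and 1 of 12 for KO SAMe lay within 1 kb of it. Sites of Lrp5, Dkk3, Wnt8a and Wnt7b were left out of these counts, among them the Lrp5 CpG 780 bases outside its gene. Of all pairs of a coding gene and a site, 11.2% lay within 1 kb for KO placebo and 12.1% for KO SAMe. The median distance was 2556 bases for pathway sites in each comparison, against 10581 bases for all such pairs for KO placebo and 9418 for KO SAMe. The median distance of the pathway sites was thus shorter than that of all pairs, over 9 pathway genes for KO placebo and 10 for KO SAMe. Distance inside a gene is bounded by its length, and these medians were not matched for gene length.

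The promoters of the pathway genes were rich in CpG. The median number of CpG dinucleotides in the 250 bases before a start was 21.5 over 44 starts of 34 pathway genes, against 10 over 21262 starts of all coding genes. The sequence CCGG was present at 79.5% of the pathway starts, against 55.7% of all starts, and TCGA at 20.5% against 20.3%, with overlaps counted and both sequences reading the same on either strand. Starts of pathway genes with a listed site had a median of 16.5 CpGs and those of genes without one 22. CpG content bears on how often a gene is covered by this assay, and its part in the share of genes with a site was not tested.

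Gene length moves with the chance of a listed site, and the median length was 31.5 kb for the pathway genes and 17.2 kb for all coding genes. Pathway genes with a site had a median length of 26.7 kb, and those without one 32.0 kb. Of the pathway genes under 10 kb, 5 of 13 had a site for KO placebo (38.5%), against 6.35% of all coding genes of that length. The same count was 5 of 13 for KO SAMe, against 5.58%. From 10 to 50 kb, 4 of 22 pathway genes (18.2%) had a site in each comparison, against 12.5% of coding genes for KO placebo and 11.2% for KO SAMe. At 50 kb and over it was 4 of 15 (26.7%) in each, against 22.5% for KO placebo and 18.5% for KO SAMe. The gap to the background was therefore widest among the short genes, which were Wnt8a, Wnt10b, Fzd1 and Fzd5 with Dvl2 for KO placebo and with Fzd7 for KO SAMe.

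**Figure D3:**
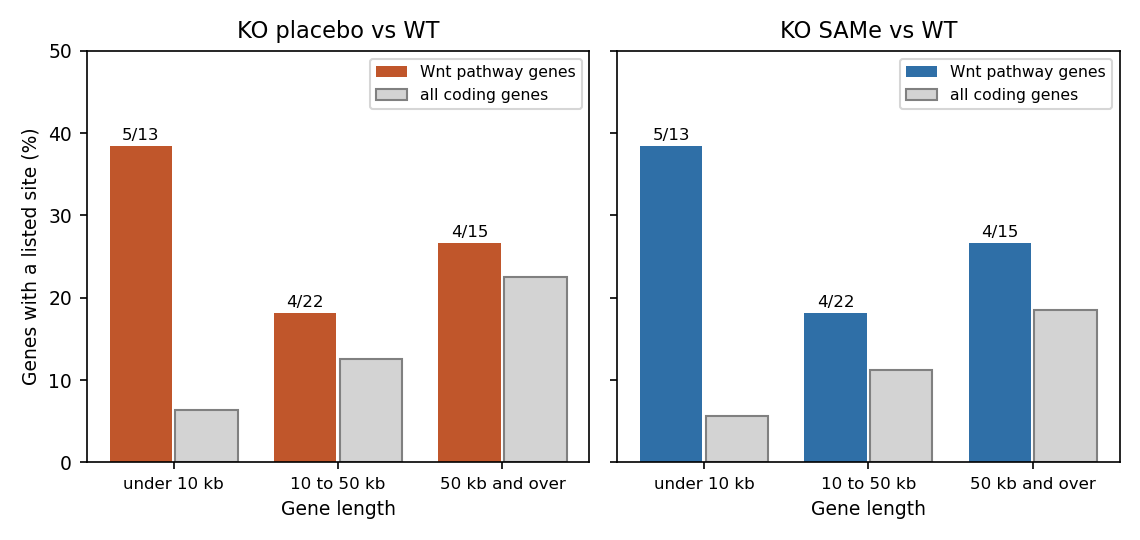
Share of genes with a listed CpG site in percent (y axis) by gene length (x axis), with Wnt pathway genes in colour left of all coding genes in grey, for KO placebo vs WT in the left panel and KO SAMe vs WT in the right. Counts above the coloured bars are pathway genes with a site of those in the class, 5 of 13 under 10 kb in both panels.

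Beyond the 50 genes, 103 further Wnt pathway genes were listed by role, also with earlier results known, of which 102 matched the RefSeq table. A listed site was found in 20 of them for KO placebo (19.6%, beside 12.5% of all coding genes) and in 23 for KO SAMe (22.5%, beside 10.8%). Between the KO groups it was 1 of 102 (0.98%), near the 0.658% of all coding genes. The branch that acts without beta-catenin had the highest count, 11 of 28 genes (39.3%) for KO placebo and 11 of 28 for KO SAMe. The median over their sites was −27.1 percentage points for KO placebo and −26.5 for KO SAMe in the authors' deposited table. These further lists were not matched for gene length. Of all coding genes of 50 kb and over, 22.5% had a site for KO placebo and 18.5% for KO SAMe. Of the planar polarity genes in this branch, Celsr1 stood at −56.4 in KO placebo and −69.1 in KO SAMe in the authors' deposited table. Prickle4 stood at −38.9 in KO placebo and −43.8 in KO SAMe at the same CpG in the authors' deposited table. Another Prickle4 CpG, listed for KO SAMe only, stood at −52.1 in the authors' deposited table. Both CpGs were shared with the neighbouring gene Frs3. The polarity protein gene Vangl1 stood at −40.3 in KO placebo and −34.4 in KO SAMe at a shared CpG in the authors' deposited table, and the calcium-responsive factor gene Nfatc1 reached −34.1 in KO placebo and −41.6 in KO SAMe in the authors' deposited table.

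Nuclear cofactors of beta-catenin had sites in 4 of 19 genes for KO placebo (21.1%, beside 12.5% of all coding genes) and 5 of 19 for KO SAMe (26.3%, beside 10.8%). The corepressor gene Tle3 stood at −37.4 in KO placebo and −50.6 in KO SAMe at the same CpG, in the authors' deposited table. The chromatin remodeller gene Smarca4 stood at −30.0 in KO placebo and −26.3 in KO SAMe at 1 CpG, in the authors' deposited table. At another CpG, Smarca4 stood at −25.9 in KO placebo and −38.2 in KO SAMe, in the authors' deposited table. Further transducers had sites in 3 of 29 genes for KO placebo (10.3%, beside 12.5% of all coding genes) and 6 of 29 for KO SAMe (20.7%, beside 10.8%). Apc2, a relative of Apc, stood at −48.1 in KO placebo and −41.9 in KO SAMe at 1 CpG in the authors' deposited table. A CpG nearby stood at −46.9 in KO placebo and −42.1 in KO SAMe in the authors' deposited table. Both CpGs lay outside Apc2 and also at 2310011J03Rik. Jup, which encodes plakoglobin, a relative of beta-catenin, stood at −24.5 in KO placebo and −24.8 in KO SAMe at the same CpG in the authors' deposited table. Another Jup CpG, listed for KO SAMe only, stood at −40.3 in the authors' deposited table. The tankyrase gene Tnks stood at −33.9 in KO placebo and −25.2 in KO SAMe, and the Apc-binding gene Amer1 reached −29.7 in KO SAMe, in the authors' deposited table. Dact3 had 1 lower site and the single higher one among the further genes compared with WT, 20.5 in KO SAMe in the authors' deposited table.

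Secretion genes and extracellular inhibitors had sites in 2 of 22 genes for KO placebo (9.09%, beside 12.5% of all coding genes). These were Sfrp1 at −22.5 and Kremen2 at −22.2 in the authors' deposited table. For KO SAMe it was Sfrp1 alone (4.55% of the 22 genes, beside 10.8%), at −21.5 in the authors' deposited table. The 3 remaining R-spondins and Lgr6 had none. In liver zonation, 2 of 23 genes driven by beta-catenin had a lower site for KO placebo, Slc13a3 at −20.9 and Aldh1a1 at −27.9, and 1 for KO SAMe, Aldh1a1 at −22.7, in the authors' deposited table. Periportal genes, which are expressed at the other end of the lobule, had sites in 3 of 16 for KO placebo (18.8%) and 4 of 16 for KO SAMe (25%). The urea cycle gene Ass1 reached −25.6 in KO placebo and −31.0 in KO SAMe in the authors' deposited table. The shares of the beta-catenin-driven genes were 8.70% for KO placebo and 4.35% for KO SAMe, beside 12.5% and 10.8% of all coding genes. With 2 and 1 of 23 genes, these counts are too small to be set apart from the background. The 3 and 4 of 16 periportal genes are also too few to be set against it or against the other list.

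**Figure D4:**
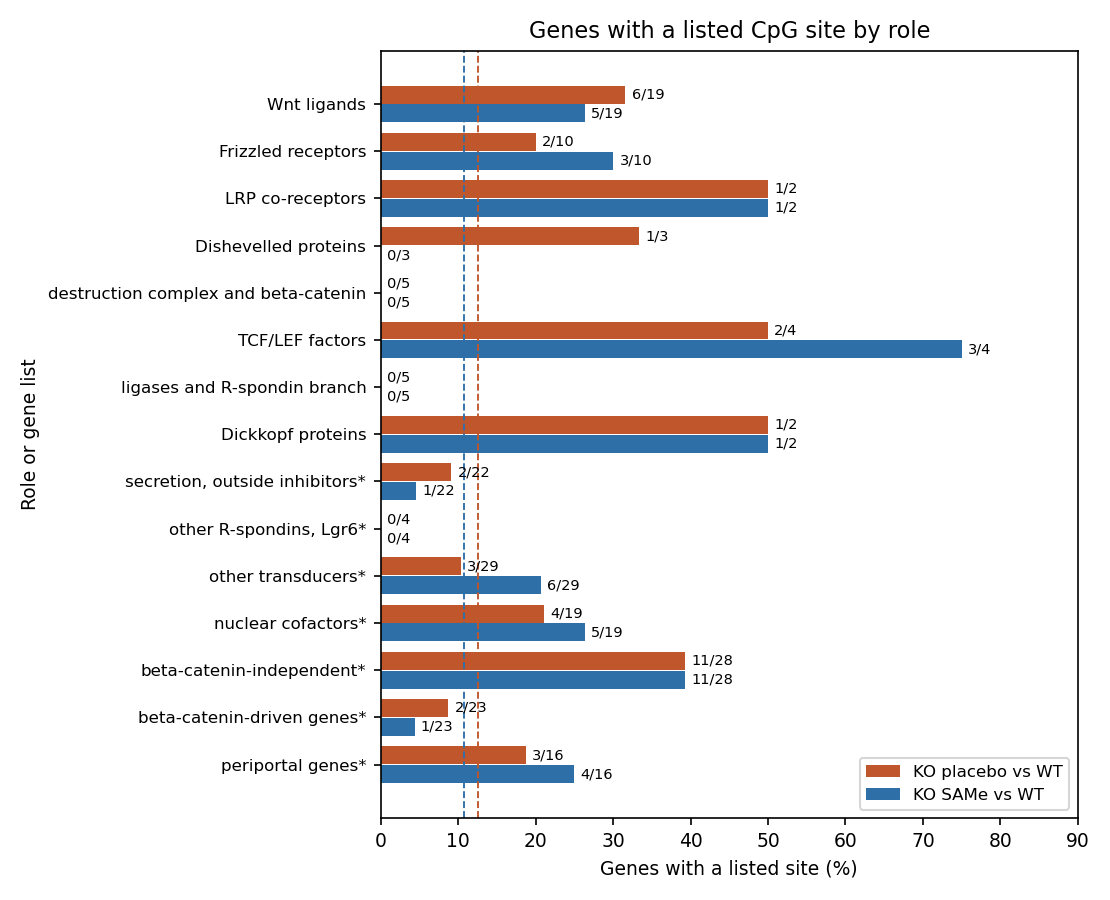
Share of genes with a listed CpG site in percent (x axis) by role or gene list (y axis), for KO placebo vs WT (upper bar) and KO SAMe vs WT (lower bar), with counts of genes beside the bars. Names with an asterisk are lists outside the 50 genes, and dashed lines mark the 12.5% and 10.8% of all coding genes with a site.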

How the data were processed

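Methylation was compared in liver DNA of 6 KO placebo, 5 KO SAMe and 8 WT mice. Per the submitters' processing notes, CASAVA 1.8.2, Trim Galore, Bismark and methylKit were used on mm10, with order and settings not given in the sources used here. Each of the 3 deposited tables holds 1 CpG per line with a p-value and q-value of the authors, whose kind of test is not given, and a methylation difference of the authors, a signed score in percentage points. All listed absolute differences exceeded 20.

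The files hold no column per animal, so no test across animals was run and no animal could be left out. At the 26 sites in all 3 tables, KO SAMe minus WT equalled the sum of the other differences within 1e-08 points. All 145 pairings of a listed site with a promoter window that could be read fell on a CpG of the GRCm38.p6 sequence, which shares primary coordinates with mm10. The gene table gives no exons, so exons, introns and UTRs were not told apart. Assignment of sites to genes was tested on simulated data. Shares are descriptions beside those of all coding genes, with no test of the list.

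The genes, their 7 companion lists and 6 marker lists were chosen with earlier results of these data known. All genes of the 50 with a site are named, and at most the 4 with the largest difference of each further list; Dact3 and Ryk were added after their values were seen. Python 3.11.15, pandas 2.3.3 and matplotlib 3.10.9 were used. Alternatives were the window around a gene, thresholds on difference and q-value, joined sites, shared sites and other backgrounds.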

Additional observations from a re-analysis of the deposited data

Results flagged for a closer look

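The co-receptor gene Lrp5 was picked out because the SAMe against placebo difference among KO mice passed the authors' thresholds at chromosome 19 position 3652143. In the authors' deposited table KO SAMe stood −21.9 percentage points from KO placebo there, and −33.1 from WT. The neighbouring CpGs at 3652133 and 3652157, at −31.2 and −30.9 from WT in KO SAMe in the authors' deposited table, were not listed between the KO groups.

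Among the further pathway genes, Ryk, which encodes a Wnt receptor related to tyrosine kinases, was picked out for the same reason, in the opposite direction. At chromosome 9 position 102833722, within 2 kb of the gene, KO SAMe stood 21.3 percentage points above KO placebo in the authors' deposited table (q = 0.00876). KO placebo stood at −35.9 from WT in the authors' deposited table, and addition places KO SAMe at −14.7. No WT mice received placebo or SAMe, so whether the effect of the genotype depends on treatment was not tested.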

How the results depend on the processing

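Of 75 alternative values, 51 stayed within 1.5 times the reported count, or within the spread or interval of the reported value, and 24 did not. At 25 percentage points or more, 8 of the 50 genes had a site for KO placebo (11 sites) and 8 for KO SAMe (12 sites), beside 7.84% and 7.13% of all coding genes. At 30 or more it was 4 genes for KO placebo and 5 for KO SAMe, beside 4.80% and 4.51%. Further pathway genes with a site numbered 13 for KO placebo at 25 or more. Between the KO groups, 0 of the 50 genes, 0 of their sites and 0 further genes were listed at 25 or more, 0 of the 50 genes at 30 or more, and 0 further genes when only sites inside the gene counted. Counting higher sites alone gave 0 in each comparison. The background share was 6.35% under 10 kb, 22.5% at 50 kb and over and 13.8% without chromosome X and predicted genes for KO placebo, and 5.58%, 18.5% and 11.8% for KO SAMe. Between the KO groups it was 0.265% under 10 kb, 0.455% from 10 to 50 kb and 1.66% at 50 kb and over. Stricter thresholds admit fewer sites by construction, and the background share was higher among longer genes.

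No paired analysis was possible because the tables hold no value per animal; no animal was left out for the same reason. Read depth is unknown, which limits what a missing site shows.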

Other observations

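Marker genes of liver cell types were looked up in the same tables, since cells other than hepatocytes supply Wnt ligands. The share of all coding genes with a site was 12.5% for KO placebo and 10.8% for KO SAMe, and each marker list holds only 6 to 9 genes. Liver endothelium had a listed site in 3 of 9 genes for KO placebo, Stab1 at −24.3, Stab2 at −26.6 and Eng at −38.6 by its lowest site, and in 1 of 9 for KO SAMe, in the authors' deposited table. All Eng sites also lay in or within 2 kb of the coding gene Fpgs. Stellate cell markers had sites in 2 of 7 genes for KO placebo and 3 of 7 for KO SAMe, with Reln at −37.3 and Des at −30.6 in KO SAMe in the authors' deposited table. Hepatocyte markers had sites in 2 of 8 genes in each comparison with WT, Apob at −28.8 in KO placebo and −33.5 in KO SAMe in the authors' deposited table, and Serpina1a at −23.5 in KO placebo and −28.9 in KO SAMe in the authors' deposited table. Csf1r alone of 7 macrophage markers had a site, at −51.2 in KO placebo and −44.4 in KO SAMe by its lowest CpG in the authors' deposited table. Cholangiocyte markers had sites in 2 of 6 genes for KO placebo and 1 of 6 for KO SAMe, and 0 of 6 lymphocyte markers had one. Sox9, the cholangiocyte marker with a site in both comparisons with WT, is also on the periportal list. Marker methylation does not measure cell number, and the part of cell mix in the values at Wnt genes was not tested.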
